A study of Mus musculus with 12 samples.

Results

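Expression of 10 immediate early genes, taken by symbol from the 25124 genes listed in each of 2 expression tables of mouse retina, was followed through ageing and after elevation of intraocular pressure. Immediate early genes are genes that a cell switches on within minutes of a stimulus, before any new protein has to be made, and whose transcripts are as quickly destroyed. Most of those followed here code for transcription factors: Egr1, Egr2 and Egr3 are zinc finger proteins that bind GC-rich sites, Fos and Fosb pair with Jun or Junb to form AP-1, Nr4a1 is an orphan nuclear receptor, and Atf3 is a stress-induced factor of the same bZIP class as the AP-1 proteins. Ier2 is a small nuclear protein with the same rapid kinetics. In retina and optic nerve these genes are known to follow light, neuronal activity, mechanical strain and axon injury, with Jun and Atf3 among the best known markers of injured ganglion cells.

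Both tables hold whole retinas of wild-type C57BL/6J mice, measured by poly(A) RNA sequencing. In the first table, 1 eye of animals aged 3 or 18 months had its intraocular pressure (IOP) held at 30 mmHg for 1 h, and retinas were taken 2 days later (3mo IOP and 18mo IOP), with untreated fellow eyes as 3mo control and 18mo control. In the second table, animals of 3 months received the same elevation 4 times at intervals of 2 weeks, and retinas were taken 2 days after the last (4xIOP), with the contralateral eyes as 4xIOP control, so that by then they were older than the 3-month animals of the first table. Each of the 6 groups had 2 libraries, and 2 libraries per group limit the precision of every value below. The animals carried no transgene or deletion, and the elevations of the study were done under ketamine and xylazine anesthesia. The genes were chosen by name with earlier results of these data in view, among them the differences of Egr1 and Fos between untreated eyes of the 2 ages. Values of that comparison are therefore given as a description, with no call, p-value or interval. Which other values entered the choice is not recorded, so the tests of the other comparisons may not be independent of it.

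Expression is given in FPKM, read counts scaled to transcript length and library size, which allows levels to be compared between genes of a library. The balance of short and long transcripts differed between the libraries, as given below. Orders of genes are set side by side between groups with that limit. The libraries held between 39766248 and 59455047 tags, recovered from the FPKM values and the transcript lengths. At that depth 3 reads of a member, taken as the floor for detection, correspond to 0.0131 to 0.0482 FPKM as a group mean, a limit that covers counting error only. Changes were fitted in limma on the log2(FPKM + 0.5) scale for genes whose mean over the table reached 0.5 FPKM. A change was called where its adjusted p did not exceed 0.05 and its size was 1 or more on that log2 scale. This scale understates the change of genes at low levels. All 10 genes passed that filter in the first table, but for Egr2 and Egr3 the mean of the 6 libraries other than 18mo IOP was below it, so both were in the fit through the 18mo IOP libraries. Of the members in the second table, 8 passed, Egr2 only through the 4xIOP libraries, and Egr3 and Fosb were not tested.

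Several properties of the libraries moved with age. Among protein-coding genes, the median FPKM of those with transcripts under 1000 bases, divided by that of those with 4000 bases or more, was 3.03 to 9.12 in the 4 libraries of 3 months and 1.52 to 1.89 in the 4 of 18 months. Summed FPKM of 10 endothelial and mural cell markers was 17.2 to 20.6 in 3mo control and 86.3 to 90.9 in 18mo control, and that of 10 Müller glia markers was 1174 to 1769 and 2390.1 to 2810.03. Retinal ganglion cell markers moved the other way, from 364 to 670.2 down to 62.6 to 118, as did pigment epithelium markers (289.97 to 371 and 122 to 171). Gene by gene, the median log2 fold change of the pigment epithelium markers was -3.27, a larger fall than that of their sum. Microglia and leukocyte markers were at 6.68 to 8.73 and 22.1 to 24.6 FPKM and lens markers at 11.7 to 13.6 and 3.35 to 4.44 FPKM. The markers of rods, the most abundant retinal cells, were high in every library, but at 24627 to 28049.7 FPKM in 3mo control and 18187 to 20443 FPKM in 18mo control. In 4xIOP, microglia and leukocyte markers summed to 45.1 to 55.6 FPKM against 4.22 to 4.39 in 4xIOP control, and lens markers to 39.6 to 87.8 against 1.41 to 3.79. No marker of these lists was at 0 in both libraries of a group except the lens gene Mip in 4xIOP control, and 1 gene, Rlbp1, is in the Müller and the pigment epithelium list. In bulk retina, fewer cells of a type and less RNA per cell cannot be told apart.

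The windows before the start sites of 5 members are shown because of their values after repeated elevation, described below. Both treated libraries were above both controls for Egr2, Junb and Atf3 and below both for Fos and Nr4a1. They were also above for Fosb and Jun, whose windows are not shown. The differences of Fos, Nr4a1 and Jun were not called, Egr2 was in the fit through its treated libraries, and Fosb was not tested. Each window shown runs 5′ to 3′ along the strand of its gene over the 250 bases before the RefSeq start, in GRCm38.p6. Capitals mark matches on either strand to TGACG, the core of the site bound by CREB and ATF proteins, to GCGNGGGCG, the site of the EGR zinc fingers, and to the CArG box bound by serum response factor. The windows are chr10:67537619-67537868 (plus strand, transcript NM_010118) for Egr2, chr8:84978749-84978998 (minus strand) for Junb, chr1:191183334-191183583 (minus strand) for Atf3, chr12:85473640-85473889 (plus strand) for Fos and chr15:101266596-101266845 (plus strand) for Nr4a1.
Egr2: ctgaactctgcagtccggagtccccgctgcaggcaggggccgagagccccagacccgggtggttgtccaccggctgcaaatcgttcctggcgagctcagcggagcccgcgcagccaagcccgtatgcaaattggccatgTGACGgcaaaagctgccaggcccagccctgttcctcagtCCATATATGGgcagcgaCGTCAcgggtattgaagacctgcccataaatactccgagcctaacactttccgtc
Junb: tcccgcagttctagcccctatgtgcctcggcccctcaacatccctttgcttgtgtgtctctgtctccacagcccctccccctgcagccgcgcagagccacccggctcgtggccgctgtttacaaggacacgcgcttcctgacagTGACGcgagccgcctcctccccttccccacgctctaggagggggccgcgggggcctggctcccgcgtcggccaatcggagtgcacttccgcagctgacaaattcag
Atf3: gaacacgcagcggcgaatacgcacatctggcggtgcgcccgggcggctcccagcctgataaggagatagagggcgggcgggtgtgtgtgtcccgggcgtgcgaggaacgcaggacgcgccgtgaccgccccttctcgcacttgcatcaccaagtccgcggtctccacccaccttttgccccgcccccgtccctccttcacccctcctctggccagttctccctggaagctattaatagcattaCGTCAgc
Fos: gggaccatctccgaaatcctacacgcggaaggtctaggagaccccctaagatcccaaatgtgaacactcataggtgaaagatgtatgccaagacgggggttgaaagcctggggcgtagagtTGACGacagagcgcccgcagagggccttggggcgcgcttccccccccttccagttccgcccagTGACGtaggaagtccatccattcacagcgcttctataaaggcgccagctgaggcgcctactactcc
Nr4a1: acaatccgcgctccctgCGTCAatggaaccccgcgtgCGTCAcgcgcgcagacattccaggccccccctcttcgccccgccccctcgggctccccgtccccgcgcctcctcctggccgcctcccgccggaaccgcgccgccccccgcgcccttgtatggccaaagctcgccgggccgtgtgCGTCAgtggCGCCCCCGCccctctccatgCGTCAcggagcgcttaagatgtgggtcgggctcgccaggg

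Windows were found for 7 of the 10 members, with Fosb and Jun beside those shown and no entry used here for Egr1, Egr3 and Ier2. TGACG was present in 6 of the 7, against 17.8% of all 32851 RefSeq promoter windows of this length. Nr4a1 held 4 matches, the nearest 40 bases before the start, Fos held 2, at 129 and 66 bases, and the single match of Atf3 lay 7 bases before its start. The full 8-letter form TGACGTCA was in none of the 7 (1.55% of all windows). A CArG box was found in Egr2 alone, 72 bases before the start, against 1.47% of all windows. GCGNGGGCG was found in Fosb and Nr4a1 (4.7% of all windows). The AP-1 motif TGANTCA was in none of the 7 (6.75%), TATAAA was in Fos alone (12.4%), and CCAAT was in 3 (33.8%). Jun held none of the matches marked in capitals. A match describes letters in this window and says nothing of whether a factor was bound there.

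The members spread over 9 chromosomes in mm10, with Junb (chr8:84976909-84978748) and Ier2 (chr8:84661331-84662852) on the same one. They are short protein-coding genes, with transcripts of 1519 bases for Ier2 to 3996 bases for Egr3. Jun, Junb and Ier2 each consist of 1 exon, Egr3 (chr14:70077317-70082613) of 2, Egr1 (chr18:34861207-34864956) of 3, Fos (chr12:85473890-85477274) and Atf3 (chr1:191170297-191183333) of 4 and Nr4a1 (chr15:101266846-101274794) of 7. Fosb lies at chr7:19302696-19310045, and Egr2 at chr10:67537869-67542188 for the transcript NM_010118. Jun (chr4:95049036-95052222) overlaps the antisense gene Junos on the other strand, and reads were counted by strand. FPKM of a gene referred to the same transcript in both tables for 9 of the 10 members. The exception was Egr2, measured on NM_001347458 in the first table and on NM_010118 in the second.

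In 3mo control the members were low. Ier2, Jun, Junb, Nr4a1, Fos and Atf3 had mean levels of 5.28, 4.42, 3.96, 3.08, 2.86 and 2.77 FPKM, and each overlapped the next in this order. Egr1 followed at 1.45, Fosb at 0.383 and Egr3 at 0.074 FPKM, each below its neighbour in both libraries, and Egr2 had no read. In 18mo control the order was another: Egr1 (184 FPKM) and Fos (155) stood above all others, then Jun (69.5) and Junb (65.2), which overlapped, then Ier2 (30.9), Nr4a1 (28.3), Fosb (21.0) and Atf3 (13.2), each overlapping the next, with Egr2 and Egr3 last at 0.974 and 0.67 FPKM. In 18mo IOP, Fos had the highest mean, at 389 FPKM, and Egr1, Junb and Jun followed at 206, 139 and 117 FPKM, each overlapping its neighbour.

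**Figure D1:**
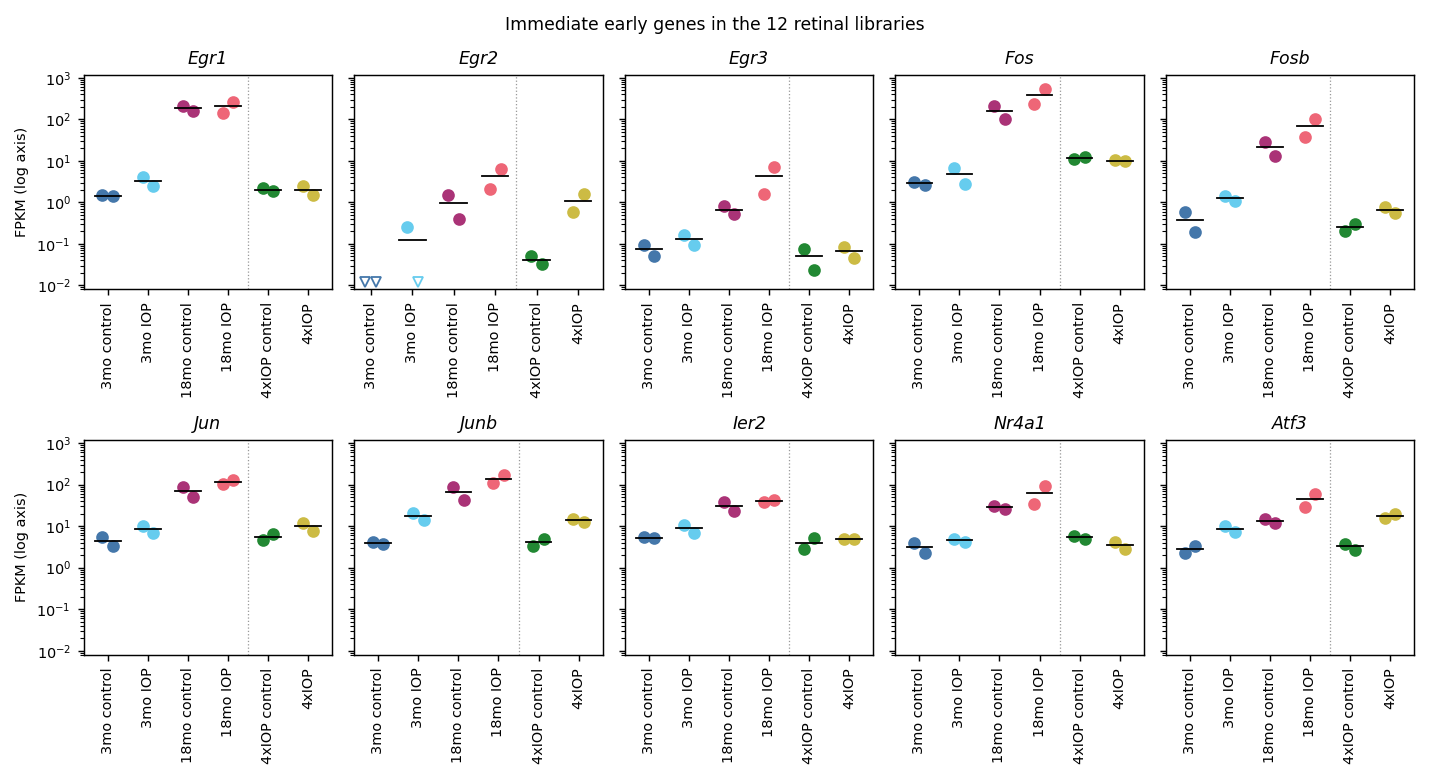
FPKM of each of the 10 immediate early genes (log axis) in the 2 libraries of each of 6 groups, with replicate 1 on the left, horizontal lines at group means, open triangles for libraries with no read and a dotted line between the tables. All 10 genes lie higher in the 18-month libraries than in the 3-month libraries of the same treatment, and both 4xIOP libraries lie above both of their controls for Egr2, Fosb, Jun, Junb and Atf3.

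The comparison of the ages in untreated eyes was meant to find what ageing alone changes in the retina. In these eyes all 10 members were higher at 18 than at 3 months in both libraries, where 45.7% of all genes tested were. The median log2 fold change was 3.41 for the members and 0.16 for all genes. Since the members were chosen with this comparison known, nothing is read from these values.

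Among the EGR genes, Egr1 was at 1.48 and 1.42 FPKM in 3mo control and at 209.8 and 159 FPKM in 18mo control, a ratio of means of 127. Both older libraries stood far above both younger ones. Egr2, which no read supported in either 3mo control library, was at 1.54 and 0.403 FPKM (176 and 49 reads) in 18mo control, at least 37.5-fold higher when set against the floor of 3 reads over the group. Egr3 was at 0.096 and 0.052 FPKM against 0.816 and 0.524 FPKM, a ratio of 9.05. Its level stayed below 1 FPKM in untreated eyes of both ages.

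Of the AP-1 subunits, Fos was at 3.07 and 2.66 FPKM in 3mo control and at 207 and 104 FPKM in 18mo control. Fosb was at 0.577 and 0.19 FPKM and at 29.1 and 12.9 FPKM. The ratios of means were 54.2 for Fos and 54.7 for Fosb. Their partners differed less between the ages: Jun was at 5.57 and 3.27 FPKM against 89.5 and 49.4 FPKM, a ratio of 15.7. Junb was at 4.2 and 3.73 FPKM against 88.3 and 42.2 FPKM, a ratio of 16.5. Groups did not overlap for any of these genes, although the 2 libraries of 18mo control differed by 1.81-fold to 2.26-fold in each of the 4.

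The remaining members showed smaller ratios than the AP-1 subunits. Nr4a1 was at 3.9 and 2.27 FPKM in 3mo control and 31.1 and 25.4 FPKM in 18mo control, a ratio of 9.18. Ier2 was at 5.49 and 5.07 FPKM against 38.3 and 23.5 FPKM (ratio 5.85). Atf3 was at 2.25 and 3.28 FPKM against 14.5 and 11.9 FPKM, and its ratio of 4.77 was the smallest among the 10.

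The libraries of treated eyes, which the comparison above did not use, gave the age difference a second time, although treated and untreated eyes of one age were fellow eyes and may come from the same animals. Of the members, 8 rose between 3mo IOP and 18mo IOP, where 10.2% of all genes tested were called higher, and Egr2 and Egr3 were higher as well. The median log2 fold change was 3.23 for the members and 0.09 for all genes, and the groups did not overlap for any member (43.2% of all genes did not overlap and were higher at 18 months). Since Egr2 and Egr3 were in the fit through the 18mo IOP libraries, they had to be higher there, and their calls are not counted. Lens markers overlapped here, at 13.5 to 31.4 FPKM in 3mo IOP and 7.28 to 17.1 in 18mo IOP. Other properties that moved with age in untreated eyes also moved here, with retinal ganglion cell markers at 491 to 561 FPKM in 3mo IOP and 61.8 to 135 in 18mo IOP and Müller glia markers at 1544 to 2208 and 4596 to 5009. Endothelial and mural cell markers differed less in sum, at 52.1 to 106 FPKM in 3mo IOP and 114 to 124 FPKM in 18mo IOP. Gene by gene, the median log2 fold change of these 10 markers was 2.01 here and 2.04 in untreated eyes. Of them, 8 were called higher here and 2 lower, where 10.2% and 11.6% of all genes were. Pigment epithelium markers summed to 270.4 to 575 FPKM in 3mo IOP and 128 to 158 in 18mo IOP, with a median log2 fold change of -4.07. With the trend of fold change over transcript length removed, the same 8 members were called. The part of the cell type markers in the result was not tested. Any other difference between the animals of 3 and of 18 months, such as the time of collection, cannot be told apart from age.

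In treated eyes Fos was at 6.66 and 2.77 FPKM at 3 months and at 231 and 547 FPKM at 18 months, a log2 fold change of 6.20 (SE 0.507, limma adjusted p = 0.00118). Egr1 rose from 4.1 and 2.45 FPKM to 144 and 268 FPKM, by 5.74 on the log2 scale (SE 0.325, limma adjusted p = 0.00095). These 2 genes had the largest differences of the list. Fosb rose from 1.45 and 1.08 FPKM to 37.7 and 101 FPKM, by 5.15 (SE 0.507, limma adjusted p = 0.00195).

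Jun rose from 9.87 and 6.87 FPKM in 3mo IOP to 102 and 131 FPKM in 18mo IOP, a log2 fold change of 3.73 (SE 0.343, limma adjusted p = 0.00166). Junb rose from 20.9 and 13.7 FPKM to 109 and 169 FPKM, by 2.97 (SE 0.372). Nr4a1 rose from 4.93 and 4.16 FPKM to 33.4 and 94.3 FPKM, by 3.49 (SE 0.439), with a limma adjusted p of 0.00302 for both Junb and Nr4a1. For all 3 genes the gap between the groups, as a ratio of FPKM, was larger than the ratio of the libraries within either.

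Atf3 rose from 9.98 and 7.19 FPKM to 29.7 and 59.9 FPKM, a log2 fold change of 2.25 (SE 0.336, limma adjusted p = 0.00511). Ier2 rose from 10.9 and 6.73 FPKM to 37.8 and 43.4 FPKM, by 2.17 (SE 0.284, limma adjusted p = 0.00322), the smallest change among the 10. The low-level genes Egr2 and Egr3 are given as values. Egr2 went from 0.255 FPKM in 1 library (36 reads) and no read in the other to 2.14 and 6.27 FPKM (a fitted change of 2.78), and Egr3 from 0.166 and 0.096 FPKM to 1.63 and 7.25 FPKM (2.69). Tested among all listed genes without a filter on low values, neither passed, with limma adjusted p = 0.0593 for Egr2 and 0.0623 for Egr3.

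**Figure D2:**
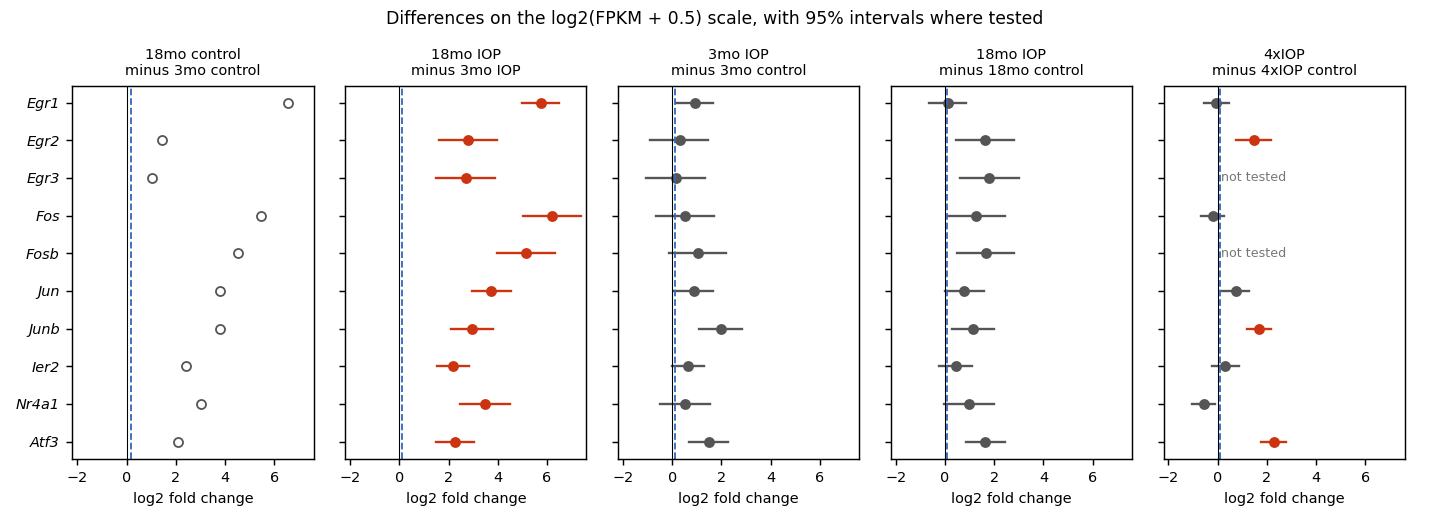
Log2 fold change of each member in 5 comparisons, as open points alone for untreated eyes, which were not tested, and otherwise with its 95% interval from limma and in red where called, with a blue dashed line at the median of all genes tested. In the 2 age comparisons all members lie right of the blue line, with Egr2 and Egr3 in the fit through 18mo IOP, while the intervals of single elevation are not in red for any member and 3 of 8 members are in red after 4 elevations.

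A single elevation of IOP at 3 months addressed the early response of the young retina. The fitted values lay above 0 for all 10 members 2 days after the elevation, but limma called none of them, where 0.568% of all genes tested were called higher. At an unadjusted p under 0.05 there were 5 members (8.51% of all genes), and for 7 members both treated libraries were above both controls, as for 28.6% of all genes tested. The median log2 fold change was 0.76 for the members and 0.13 for all genes.

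Junb and Atf3 had the largest values. Junb was at 4.2 and 3.73 FPKM in 3mo control and 20.9 and 13.7 FPKM in 3mo IOP, a log2 fold change of 1.97 (SE 0.372, 95% interval 1.11 to 2.82, limma adjusted p = 0.0757). Atf3 was at 2.25 and 3.28 FPKM and 9.98 and 7.19 FPKM (1.48, SE 0.336, interval 0.70 to 2.25, limma adjusted p = 0.132). With only the 3-month libraries in the fit Junb was called, and Atf3 was called in a fit without either one of the 18mo IOP libraries. Fosb had a fitted change of 1.03, Egr1 of 0.92, Jun of 0.87, Ier2 of 0.65 and Nr4a1 of 0.53, all with both treated libraries above both controls. For Fos, at 6.66 and 2.77 FPKM against 3.07 and 2.66 FPKM, the libraries overlapped, and the interval of its change of 0.53 ran from -0.64 to 1.69. In the same groups, summed endothelial and mural cell markers were at 17.2 to 20.6 FPKM in 3mo control and 52.1 to 106 in 3mo IOP, and microglia and leukocyte markers at 6.68 to 8.73 and 14.6 to 22.8. Gene by gene, the median log2 fold changes of these lists were 0.31 and 0.71, against 0.13 for all genes. The part of these markers in the values of the members was not tested.

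At 18 months, the same elevation again gave fitted values above 0 for all 10 members. None was called by limma, where 0.117% of all genes were called higher, and 7 had an unadjusted p under 0.05 (9.45% of all genes). Both treated libraries were above both controls for 8 members, as for 36.5% of all genes, with a median log2 fold change of 1.21 against 0.09 for all genes. These counts and the median of the members include Egr2 and Egr3, which were in the fit through the 18mo IOP libraries and so had to be high in them. Egr1 and Ier2 were the members whose groups overlapped.

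Egr3, at 0.816 and 0.524 FPKM in 18mo control and 1.63 and 7.25 FPKM in 18mo IOP, had a fitted change of 1.81 (SE 0.515, limma adjusted p = 0.227). Fosb, at 29.1 and 12.9 FPKM against 37.7 and 101 FPKM, had a change of 1.65 (SE 0.507, limma adjusted p = 0.258). Atf3, at 14.5 and 11.9 FPKM against 29.7 and 59.9 FPKM, had a change of 1.64 with the smallest p of the list (SE 0.336, limma adjusted p = 0.117). For Egr3 and Fosb the 2 treated libraries differed, as a ratio of FPKM, by more than the gap between the groups. Egr2 changed by 1.64 (limma adjusted p = 0.266), Fos by 1.28 (0.457), Junb by 1.15 (0.292), Nr4a1 by 0.99 (0.55), Jun by 0.79 (0.522) and Ier2 by 0.43 (0.871) in the fit, none of which passed the test. Egr1 differed little, with 209.8 and 159 FPKM against 144 and 268 FPKM and an interval of -0.64 to 0.86 around a change of 0.11. Several summed markers moved with the treatment here without overlap of the groups. Those of Müller glia were at 2390.1 to 2810.03 FPKM in 18mo control and 4596 to 5009 in 18mo IOP, of endothelial and mural cells at 86.3 to 90.9 and 114 to 124, of microglia and leukocytes at 22.1 to 24.6 and 27.2 to 57.8, and of lens at 3.35 to 4.44 and 7.28 to 17.1. Rod markers were lower, at 18187 to 20443 and 13821 to 16295 FPKM, as were blood markers, at 166 to 426 and 44.3 to 54.3 FPKM. Their part in these values was not tested.

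In 3 of the 6 groups the members shared the order of the 2 libraries. In 18mo IOP, replicate 2 was above replicate 1 for 10 of 10 members, with a median ratio of replicate 1 to replicate 2 of 0.461 on the scale of FPKM + 0.5, where the median over all genes was 0.975. In 18mo control it was replicate 1 that was higher for 10 of 10 members (median ratio 1.71, all genes 0.987), and in 3mo IOP likewise (1.46, all genes 1.04). The other groups did not share one order, with replicate 1 higher for 8 of 10 members in 3mo control, 4 of 8 in 4xIOP control and 6 of 8 in 4xIOP. Without replicate 1 of 18mo IOP, Atf3 was called higher after elevation at 18 months, and so was Egr3, which was then in the fit through the one treated library left. That lone library is assumed to vary like the other groups.

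Whether the response to IOP differed between the ages was asked by the interaction of both factors. For no member was the interaction called, with limma adjusted p = 1 for every one, and none had an unadjusted p under 0.05 (1.59% of all genes). Of all genes tested, 0% were called. Egr3, in the fit through its 18mo IOP values, had an interaction of 1.67 on the log2 scale (95% interval -0.01 to 3.35), and the largest negative ones were those of Junb (-0.82, interval -2.03 to 0.39) and Egr1 (-0.81, interval -1.87 to 0.25). With intervals of this width, a p that misses the threshold does not show that the responses were alike. The IOP comparisons share their control libraries with the comparison of ages in untreated eyes.

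After 4 elevations, which asked whether recurrent mild stress changes the young retina, Atf3 and Junb rose among the 8 members tested, where 5.45% of all genes were called higher. Egr2 was called as well, but it was in the fit through the treated libraries and so had to be higher in them. The median log2 fold change was 0.52 for the 8 and 0.10 for all genes. The first of these medians includes Egr2, whose fitted value of 1.46 raises it. The members split: for Egr2, Junb, Atf3 and Jun both 4xIOP libraries were above both controls (27.7% of all genes), for Fos and Nr4a1 both were below (12.7%), and for Egr1 and Ier2 they overlapped.

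Atf3, whose promoter window holds the TGACG match nearest to its start, was at 3.78 and 2.71 FPKM in 4xIOP control and 15.3 and 19.9 FPKM in 4xIOP, a log2 fold change of 2.27 (SE 0.231, 95% interval 1.77 to 2.78, limma adjusted p = 2.42e-05). Junb was at 3.31 and 4.85 FPKM and 15.0 and 12.8 FPKM, a rise of 1.67 (SE 0.229, interval 1.17 to 2.17, limma adjusted p = 0.000323). In both genes the gap between the groups was larger than the spread within either. Egr2, the member with a CArG box in its window, was at 0.051 and 0.032 FPKM (6 and 4 reads) and 0.577 and 1.55 FPKM (96 and 194 reads), a ratio of means of 25.6 but a fitted change of 1.46 on the log2(FPKM + 0.5) scale, which understates it (SE 0.324). Its change was 0.99 without replicate 2 of 4xIOP and 0.95 with a pseudocount of 1, and was then not called. All 3 calls were lost when all listed genes were tested without a filter on low values (adjusted p of 0.165 for Atf3, 0.199 for Junb and 0.397 for Egr2).

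The other members did not pass the test. Jun was at 4.74 and 6.42 FPKM against 12.1 and 7.55 FPKM (0.74 on the log2 scale, SE 0.252, limma adjusted p = 0.117). Nr4a1 was at 5.89 and 5.01 FPKM in 4xIOP control and 4.25 and 2.88 FPKM in 4xIOP (-0.57, SE 0.218, interval -1.04 to -0.09, limma adjusted p = 0.187). Fos was at 11.1 and 12.4 FPKM against 10.6 and 9.71 FPKM (-0.20, interval -0.67 to 0.27, limma adjusted p = 0.851). Fos and Nr4a1 were thus lower in both treated libraries than in both controls, and the interval of Nr4a1, before adjustment over all genes, did not include 0. Egr1 was at 2.19 and 1.86 FPKM against 2.43 and 1.47 FPKM (-0.07, interval -0.57 to 0.44), and Ier2 at 2.78 and 5.24 FPKM against 4.95 and 4.8 FPKM (0.31, interval -0.23 to 0.85). Fosb, not tested, was at 0.208 and 0.299 FPKM against 0.761 and 0.567 FPKM, and Egr3 stayed at 0.024 to 0.085 FPKM in the 4 libraries. The microglia, leukocyte and lens markers given above were higher in both 4xIOP libraries in sum, while rod markers were lower, at 12244 to 12894 FPKM in control and 5856 to 8847 FPKM in 4xIOP. Pigment epithelium markers were lower as well, at 123 to 146 and 62.0 to 86.5 FPKM, while endothelial and mural cell markers were at 36.7 to 41.2 and 72.0 to 73.9 FPKM and Müller glia markers at 1247 to 1332 and 1483 to 1569.6 FPKM. Their part in the values of Atf3, Junb and Egr2 was not tested.

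Related genes were set beside the members from lists chosen for their roles. Of other immediate early transcription factors, 10 of 15 rose with age in treated eyes and none fell. Fosl1, Fosl2 and Myc, also called, were in the fit through the 18mo IOP libraries and are not counted. Of all genes tested, 10.2% were called higher and 11.6% called lower in that comparison. Klf4 rose by 4.51, Klf2 by 3.78 and Maff by 3.76 (limma adjusted p = 0.00101, 0.00118 and 0.00352). Each averaged below 0.5 FPKM over the 3-month libraries and so passed the filter through the 18-month libraries, the side on which it was higher. After a single elevation none was called at either age, where 0.568% of all genes at 3 months and 0.117% at 18 months were called higher. After 4 elevations none of 12 tested was called, where 5.45% of all genes were called higher. Klf10 (0.95, limma adjusted p = 0.00693) and Klf6 (0.81, limma adjusted p = 0.0299) were short of the fold threshold.

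Feedback regulators, which include phosphatases of MAP kinases and proteins that destroy short-lived messages, rose with age in treated eyes in 13 of 19 tested. Of all genes tested, 10.2% were called higher in that comparison. Zfp36, which binds AU-rich messages and marks them for decay, rose by 5.10 (limma adjusted p = 0.00153), and Dusp1, a nuclear MAP kinase phosphatase, by 4.04 (limma adjusted p = 0.0013). After 4 elevations 2 rose and 2 fell of 19 tested, where 5.45% of all genes were called higher and 0.693% called lower. Gadd45b, a stress-induced gene, rose by 2.64 (limma adjusted p = 2.55e-06). Dusp1 fell by 1.26 (limma adjusted p = 0.00112) and Dusp4 fell by 1.11 (limma adjusted p = 0.00412) on the log2 scale. Gadd45b had a change of 2.21 after single elevation at 3 months (limma adjusted p = 0.0686) and 1.98 at 18 months (limma adjusted p = 0.117), which did not pass the test.

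Activity-regulated effector genes, the downstream products of the program in neurons, did not share one direction with age in treated eyes, with 2 of 11 called higher and 4 called lower, beside the 10.2% and 11.6% of all genes, and with Ptgs2 left out because it was in the fit through 18mo IOP. Arc, a regulator of glutamate receptors at synapses, rose by 4.12 (limma adjusted p = 0.00302). It too passed the filter through the 18-month libraries, with an average below 0.5 FPKM over the 3-month ones. Penk, the precursor of enkephalins, fell by 3.68 (limma adjusted p = 0.00166), and Nrn1, which promotes neurite growth, fell by 3.83 (limma adjusted p = 0.00685). After 4 elevations 1 of 9 was called, where 0.693% of all genes were called lower. It was Vgf, a neuropeptide precursor, which fell by 1.54 (limma adjusted p = 0.000237).

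Of the kinases and factors that act upstream of the members, 3 of 20 were called higher with age in treated eyes, a share near the 10.2% of all genes and so no result about this list. They were Srf, which binds the CArG box (1.45, limma adjusted p = 0.0114), Elk3, a partner of Srf (1.33, limma adjusted p = 0.00839) and Crtc2, a coactivator of CREB (1.04, limma adjusted p = 0.0096). Of the bZIP partners of AP-1 and ATF proteins 3 of 12 were called higher, among them Atf7 (1.11) and Mafg (1.05). Neuron injury genes split, with 1 of 7 called higher, Hspb1 (1.70), and 3 called lower, among them Gap43 (-1.71). Sprr1a, called higher too, was in the fit through 18mo IOP and is not counted. Against the 10.2% and 11.6% of all genes, nothing is read from these small counts. None of the 20 upstream, 12 partner or 6 injury genes tested was called after 4 elevations, where 5.45% of all genes were called higher. Clock genes were listed because time of day moves several immediate early genes. Of these, 3 of 15 were called higher with age in treated eyes, where 10.2% of all genes were. They were Nr1d1 (1.40), Per1 (1.23) and Bhlhe40 (1.23), and nothing is read from this count either. The hour at which retinas were taken is not given in the sources used here.

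**Figure D3:**
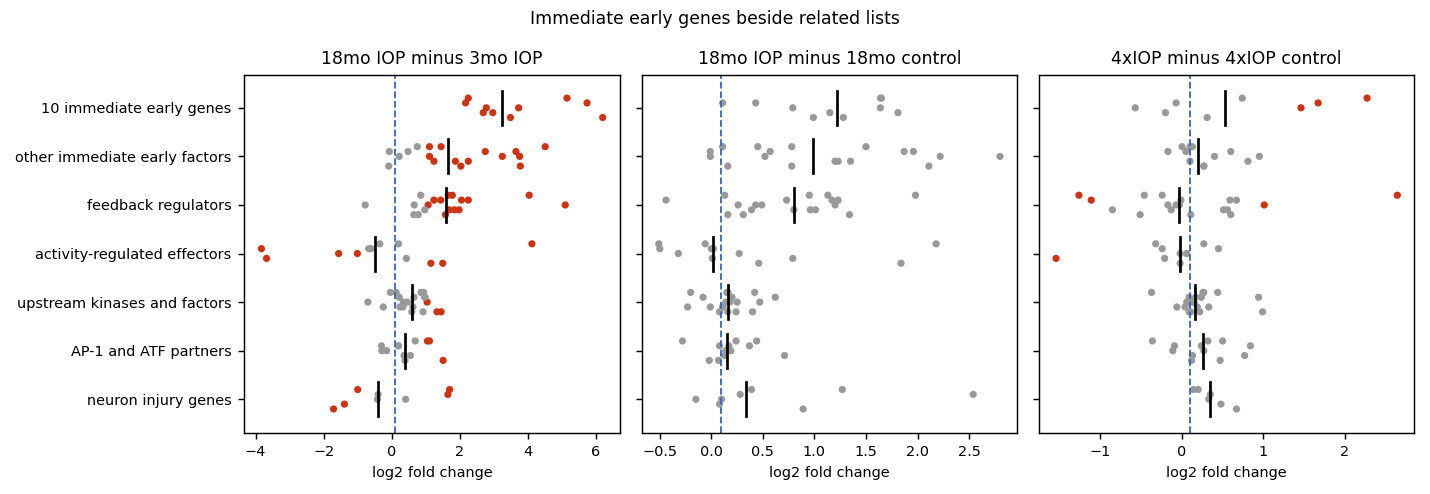
Log2 fold changes of the members and of related gene lists in 3 comparisons, each point a gene tested, in red where called, with a black bar at the list's median and a blue dashed line at the median of all genes tested. In the comparison of ages in treated eyes the members and the medians of the first 2 related lists lie right of the blue line, effector and injury genes lie on both sides, and no point is red for single elevation at 18 months.

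Likeness to the members was measured as Pearson's r over the 8 libraries of the first table with the mean of the members on the log2 scale. That mean is set apart mainly by age, so the values describe libraries that share an age group and depth. The genes compared were the 8213, members included, that varied by at least 2-fold. Outside the members, the highest values were those of Ccn1 (r = 0.996), Zfp36 (0.9958), Asap3 (0.9951), Brap (0.9944) and Prpsap1 (0.9937). Ccn1, a secreted matrix protein, ranged from 0.715 to 5.04 FPKM in the 3-month libraries and from 26.5 to 334 FPKM in the 18-month libraries. Zfp36 ranged from 1.25 to 4.34 and from 37.6 to 171 FPKM. The other 3 genes changed by far less in FPKM, Brap for example from 4.66 to 6.15 up to 8.24 to 10.6.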

How the data were processed

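Both tables were deposited by the authors as FPKM per gene, made per the labels and the study's methods from strand-specific poly(A) libraries aligned to mm10 with STAR 2.7.8a and counted over exons of RefSeq transcripts with HOMER, 1 transcript per gene. Their own fold changes came from DESeq2 and are not used here. The members, lists and tests were chosen with earlier results of these data known. Genes whose mean over a table reached 0.5 FPKM (13731 and 13718 of 25124) were fitted on log2(FPKM + 0.5) in limma 3.58.1 (R 4.3.3, trended empirical Bayes, Benjamini-Hochberg over all genes tested). The 8 libraries of the first table formed 4 groups and left 4 residual degrees of freedom. The second table, of 4 libraries, was fitted alone and left 2. Every value times its transcript length was a whole multiple of 1 read within the rounding of the deposited value, for 100% of the values checked, which gave the depth. All members were named. From each related list, the 3 largest called changes per comparison, or with none called the 2 smallest p, could be named. Genes like the members were the 5 with the highest r. The study gives the 2 libraries of a group as biological replicates. Members and genes of the related lists whose mean outside the treated group compared was below 0.5 FPKM were left out of the counts of rises. Those named beyond the rule were named after their values were seen. Alternatives were other pseudocounts, filters, scalings and variance models, voom on recovered reads, a length correction, replicate blocks, and each library left out.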

Additional observations from a re-analysis of the deposited data

Results flagged for a closer look

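For Fos and Nr4a1 the libraries moved in opposite directions in the 2 tables, each comparison without overlap of its own groups. Fos was higher in both treated libraries after a single elevation at 18 months, with a fitted log2 change of 1.28, and lower in both after 4 elevations at 3 months (-0.20). Nr4a1 was higher after a single elevation at 3 months (0.53) and at 18 months (0.99) and lower after 4 elevations (-0.57). None of these changes was called, and the differences between them were not tested, because the tables were made separately. The groups also differed in age at collection, so the number of elevations and age cannot be told apart.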

How the results depend on the processing

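Over 1088 refits of single members, 1030 kept their direction and their side of the threshold, 17 passed it only in the alternative, 21 lost it and 20 changed sign. The number of members called in the comparison of ages in treated eyes stayed between 8 and 10 in all alternatives. For single elevation at 3 months it was 1 (Junb) with only the 2 groups compared in the fit, and 0 to 1 with a library left out. At 18 months it was 0 to 2 with a library left out. After 4 elevations it was 0 without a filter on low values, which adds genes at or near 0 to the fit. Median-of-ratios scaling moved the median of all genes in untreated eyes from 0.16 to 0.0103 on the log2 scale. Sign changes were among values that were not called: Egr1 at 18 months was -0.02 with that scaling, and with voom the interactions of Egr2 and Fosb were -0.93 and -0.28. With 1 library left out, values that crossed 0 ranged from -0.04 to 1.09 for Fos at 3 months and -0.34 to 0.55 for Egr1 at 18 months. For the interaction they ranged from -0.09 to 1.32 (Fosb), -0.50 to 0.35 (Jun), -0.57 to 0.12 (Ier2), -0.28 to 1.20 (Nr4a1) and -0.33 to 0.67 (Atf3), and after 4 elevations from -0.35 to 0.22 (Egr1) and -0.10 to 0.71 (Ier2). The cause was not tested.

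Replicate numbers were shared between groups, but no source says that they mark an animal, and same-numbered libraries did not deviate together (r of -0.275, -0.53 and -0.29 over genes for 3mo, 18mo and 4xIOP). With the replicate block the numbers called were 10 for the ages in treated eyes, 0 for single elevation at both ages and for the interaction, and 3 after 4 elevations, and no call of these comparisons changed. With the crossed pairing, chosen after seeing the data, the counts were 10 for the ages in treated eyes, 2 and 5 for single elevation at 3 and 18 months, 0 for the interaction and 3 after 4 elevations.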
